A study of Xenopus laevis with 27 samples.

Results

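The genes followed here are il1b.S (gene745), cxcl8.L (gene35111), cxcl8.S (gene19363), ptgs2.S (gene14853), nfkbia.L (gene628) and nfkbia.S (gene9048), 6 of the 42903 genes in the deposited tables, chosen by name. They were named for their levels in these same libraries, so their differences between limb groups are descriptions without a test, and nothing is supported by them. Xenopus laevis is allotetraploid, and the suffixes .L and .S mark the homeologous copies of a gene on the longer and the shorter chromosome of a pair. NF-kappaB is a dimeric transcription factor that is held in the cytoplasm by inhibitors of the IkappaB family. Signals from cytokine receptors, Toll-like receptors or cell damage activate a kinase that marks the inhibitor for destruction, and the factor then enters the nucleus and switches on inflammatory genes. Textbook targets include interleukin 1 beta (il1b), an inflammatory cytokine; interleukin 8 (cxcl8), a chemokine that draws neutrophils; cyclooxygenase 2 (ptgs2), the inducible enzyme of prostaglandin synthesis; and IkappaB alpha (nfkbia), the inhibitor that ends the signal by feedback. In mammalian wounds these genes are known as early responders. RNA was measured here, not NF-kappaB activity, so the group is a group by known regulation.

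Adult frogs had a hindlimb amputated, and a wearable bioreactor, a small chamber on the wound, delivered progesterone locally for a brief time. The frogs compared wore the device with progesterone, wore a silk device with no hormone in it as the sham, or wore no device. Blastema (the tissue growing on the amputation surface), stump and brain were each sampled in every group, with 3 libraries per tissue and treatment and 27 in all. The labels name the species Xenopus laevis, and they give no strain, age, progesterone dose or sampling time, and they do not tie tissues or libraries to single frogs, so the spread between libraries may in part be technical.

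Levels below are FPKM, fragments scaled by gene length and by the mapped reads of the library, and differences are on the log2(FPKM + 1) scale with their standard error. Libraries were shallow, with 182678 to 968392 estimated reads for blastema, 312451 to 3467561 for stump and 653085 to 2084540 for brain, and the deepest limb libraries were those of the stump without a device. Blastema progesterone 1 and 3, stump no-device 1 and 3, and brain no-device 1 and 3 differed at only 0.575%, 0.403% and 0.312% of genes, close to sampling noise, and each pair counts as 1 sample, so n = 2 in these groups and n = 3 in the others. Shares of genes whose groups do not overlap were counted on these samples. Averaging a pair makes non-overlap easier, so such shares are at least as high as over single libraries. The library labelled brain silk 3 was as close to brain no-device 1 and 3 (0.334% and 0.337% of genes) and was kept under its label. The gene model smad4.1.S held 22.1% to 39.2% of the estimated reads in blastema silk, 25.6% in blastema progesterone 2, and 20.6%, 31.0% and 15.9% in stump silk 1, stump silk 2 and stump progesterone 1. With FPKM rescaled without it, the stump progesterone minus no-device differences of the 6 genes ran from 1.68 to 3.19, and without the limb libraries in which it held over 10% of reads they ran from 2.13 to 3.37, beside 1.60 to 3.10 with all libraries. The 2 settings were chosen after seeing the data, and the second leaves 1 stump silk library and no blastema silk library. Neuronal marker genes summed to 2272 to 3071 FPKM in brain and to at most 284.6 FPKM in limb libraries, which is what the brain label calls for. Within each treatment, skeletal muscle markers summed higher in every stump library than in every blastema library. Without a device the sums were 56970 to 89030 FPKM in stump and 17390 to 33890 FPKM in blastema. With silk they were 5791 to 12640 and 997.8 to 2693 FPKM, and with progesterone 4637 to 30020 and 2902 to 4182 FPKM. Across treatments the tissues were not separated, since untreated blastema lay above 5 of the 6 stump libraries with a device. In such bulk samples, fewer cells of a type and less RNA per cell cannot be told apart.

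The interleukin 1 beta gene il1b.S was high in untreated blastema and low in untreated stump. In blastema its level was 19.46, 16.26 and 43.75 FPKM without a device, 24.54, 0 and 20.08 FPKM with silk, and 15.34, 0 and 10.77 FPKM with progesterone. In stump it was 2.11, 0 and 2.5 FPKM without a device, 9.62, 5.54 and 9.59 FPKM with silk, and 5.9, 4.17 and 54.86 FPKM with progesterone. Every stump library with a device thus lay above every stump library without one, and the mean of the stump progesterone group was carried by its library 3. Reads were few, with 4.1, 3.0 and 9.2 estimated in the stump silk libraries and 4.1, 9.7 and 37.7 in those with progesterone. In blastema the silk and no-device libraries overlapped, while every progesterone library lay below every no-device library. The difference from no device was 2.79 ± 0.98 with progesterone and 2.31 ± 0.98 with silk in stump, and −2.74 ± 1.46 and −1.63 ± 1.31 in blastema. Without stump progesterone 3 the stump progesterone value was 1.72, and without stump no-device 2 the stump silk value was 1.45. Brain libraries held at most 0.9 FPKM, or at most 1.0 estimated read. The other copy, il1b.L, is listed at 0 in all 9 brain libraries and reached at most 6.69 FPKM in the limb, in blastema no-device 3.

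The 2 interleukin 8 copies did not behave quite alike between libraries. In blastema cxcl8.L was at 22.51, 24.18 and 33.51 FPKM without a device, 29.19, 0 and 9.95 FPKM with silk, and 17.11, 0 and 13.34 FPKM with progesterone. In stump cxcl8.L was at 3.44, 3.23 and 2.6 FPKM without a device, 10.73, 0 and 12.67 FPKM with silk, and 4.39, 12.23 and 26.45 FPKM with progesterone. For cxcl8.L the stump progesterone libraries lay above, and the blastema progesterone libraries below, all no-device libraries of the same tissue, and silk overlapped no device in stump. Stump progesterone 1 held 2.0 estimated reads of cxcl8.L, with 1 read worth 2.17 FPKM. The place of that library above no device thus rests on few reads. The stump difference of cxcl8.L was 1.60 ± 1.09 with progesterone, 1.03 without stump progesterone 3, and 0.40 ± 1.09 with silk. The silk value turned to −0.42 with a pseudocount of 0.1, to −0.17 after median-of-ratios scaling, to −0.16 without stump silk 1 and to −0.27 without stump silk 3, and rose to 1.62 without stump silk 2.

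For cxcl8.S the blastema levels were 24.3, 27.91 and 46.55 FPKM without a device, 37.92, 4.49 and 0 FPKM with silk, and 47.4, 0 and 45.29 FPKM with progesterone. The stump levels of cxcl8.S were 4.14, 6.1 and 4.56 FPKM without a device, 6.76, 5.19 and 28.43 FPKM with silk, and 53.89, 20.06 and 33.32 FPKM with progesterone. Stump progesterone stood above no device without overlap, at 35.8 ± 17.0 FPKM (SD, n = 3) against 5.22 ± 1.24 FPKM (SD, n = 2), a ratio of means of 6.84 and a difference of 2.47 ± 0.75. With silk the stump difference was 0.86 ± 0.75, or 0.17 without stump silk 3, and the libraries overlapped. In blastema the ranges of all treatments overlapped. In brain both copies were at most 0.57 FPKM and listed at 0 in every silk library, and at most 1.0 read of either was estimated in any brain library.

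The cyclooxygenase 2 gene ptgs2.S had the largest stump difference of the 6 genes. In stump it was at 3.02, 0.67 and 3.55 FPKM without a device, 13.36, 5.7 and 31.91 FPKM with silk, and 14.83, 16.38 and 42.73 FPKM with progesterone. In blastema it was at 23.18, 38.47 and 48.94 FPKM without a device, 15.15, 1.97 and 7.14 FPKM with silk, and 21.58, 0 and 33.38 FPKM with progesterone. All stump device libraries lay above the no-device libraries, and all blastema silk libraries lay below the blastema libraries without a device. The mean stump level with progesterone, 24.6 ± 15.7 FPKM (SD, n = 3), was 12.5 times that without a device, 1.98 ± 1.85 FPKM (SD, n = 2), a difference of 3.10 ± 0.80. With silk the stump ratio was 8.59 and the difference 2.46 ± 0.80. In blastema the no-device mean was 4.56 times the silk mean, a difference of −2.31 ± 1.12 for silk, and the progesterone difference was −2.76 ± 1.26. Brain libraries held at most 0.71 FPKM. The gene was listed at 0 in all brain silk libraries and at 0.28 to 0.46 FPKM in the brain progesterone libraries, which rests on 5.0 estimated reads in that whole group.

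The other cyclooxygenase 2 copy, ptgs2.L, was not among the chosen genes. It was followed as the copy of a chosen gene and may share reads with it. Its test results below are thus not independent of that choice. Its gene model is short, an estimated 0.27 kb, with at most 8.1 reads in a library. In stump it was at 3.22, 0 and 1.28 FPKM without a device, 12.27, 9.42 and 10.87 FPKM with silk, and 15.06, 17.67 and 30.26 FPKM with progesterone. The device groups did not overlap the group without a device, and the differences were 3.55 ± 0.64 for progesterone and 2.71 ± 0.64 for silk. Stump silk held 1.0, 1.0 and 2.0 estimated reads of ptgs2.L, with 1 read worth 11.93, 9.2 and 5.4 FPKM. Without a device 1 read was worth 1.08 to 1.83 FPKM. A single read thus placed a silk library above all those without a device, so the silk non-overlap and difference cannot be separated from depth. Stump progesterone held 2.0, 8.0 and 4.1 estimated reads, with 1 read worth 7.43, 2.18 and 7.36 FPKM. In its libraries 1 and 3 a single read would also exceed all libraries without a device, so depth limits the progesterone values too. Neither the progesterone nor the silk difference passed limma's test over all genes (adjusted p = 0.159 and adjusted p = 0.161). The authors' deposited table gives ptgs2.L a log2 fold change of 2.47 and a q-value of 0.0158 for progesterone against no device. For silk against no device it gives 1.46 and 0.285. In blastema ptgs2.L ranged from 11.03 to 47.35 FPKM without a device, 16.32 to 25.04 FPKM with silk and 0 to 36.63 FPKM with progesterone, and no difference from no device passed (adjusted p = 0.958 for silk and adjusted p = 0.994 for progesterone, limma). Reads of 40 nt can be shared by near-identical copies, so the split of reads between any .L and .S pair is uncertain.

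The inhibitor IkappaB alpha was the most abundant of the mediators, and its stump levels formed separate steps by treatment. In stump nfkbia.L was at 16.99, 25.57 and 17.89 FPKM without a device, 66.17, 67.73 and 56.67 FPKM with silk, and 131.27, 132.94 and 144.1 FPKM with progesterone. No library of any stump group fell within the range of another. The means were 21.5 ± 5.75 FPKM (SD, n = 2), 63.5 ± 5.99 FPKM (SD, n = 3) and 136.1 ± 6.97 FPKM (SD, n = 3). The ratio to no device was 6.33 with progesterone and 2.95 with silk, and the ratio of progesterone to silk was 2.14. The differences were 2.63 ± 0.51, 1.54 ± 0.51 and 1.09 ± 0.46 in that order.

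In stump nfkbia.S was at 5.76, 7.7 and 3.77 FPKM without a device, 12.18, 9.35 and 10.79 FPKM with silk, and 20.92, 28.49 and 31.53 FPKM with progesterone. It took the same order without overlap, and progesterone differed from no device by 1.96 ± 0.53, silk from no device by 0.73 ± 0.53 (0.43 without the merged stump no-device 1 and 3) and progesterone from silk by 1.24 ± 0.47. For progesterone against silk, 2 of the 6 genes, the nfkbia copies, had higher and non-overlapping libraries, against 3.21% of all 29972 tested genes. In blastema nfkbia.L was at 79.31, 72.89 and 97.24 FPKM without a device, 99.02, 32.25 and 70.57 FPKM with silk, and 133.63, 26.15 and 140.71 FPKM with progesterone. Blastema nfkbia.S ranged from 18.61 to 25.61 FPKM without a device, 10.17 to 27.34 FPKM with silk and 8.25 to 26.35 FPKM with progesterone. Here all treatments overlapped for both copies, and no difference from no device was larger than 0.63 in size.

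**Figure D1:**
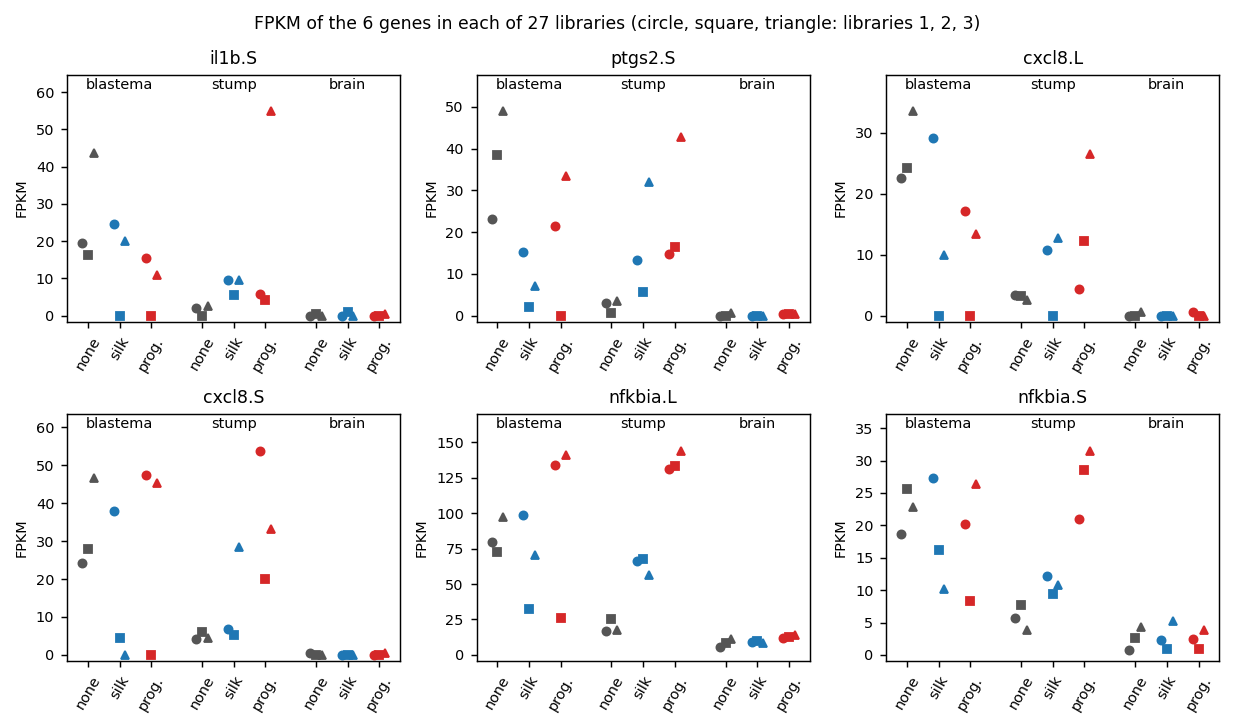
FPKM (linear y axis) of il1b.S, ptgs2.S, cxcl8.L, cxcl8.S, nfkbia.L and nfkbia.S in each of 27 libraries, grouped on the x axis by tissue and treatment (none, no device; prog., progesterone), with a symbol for library 1, 2 or 3. Stump nfkbia.L forms separate steps at 16.99 to 25.57, 56.67 to 67.73 and 131.27 to 144.1 FPKM, and the 4 mediators other than nfkbia are near 0 in brain. Blastema progesterone 2 has the lowest or equal lowest blastema value of each gene. Blastema silk 2 is the lowest silk library except for cxcl8.S and nfkbia.S, where silk 3 is lower.

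Brain was the only tissue in which treatment was tested for these genes, since the limb contrasts were known when the genes were chosen. Whether brain levels had a part in that choice is not recorded, so the brain tests carry that limit. Only the nfkbia copies passed the filter on low values (3 or more samples at an FPKM of 1 or more). In brain nfkbia.L was at 5.61, 8.66 and 10.97 FPKM without a device, 9.32, 9.88 and 8.66 FPKM with silk, and 12.17, 12.28 and 14.08 FPKM with progesterone. The progesterone libraries lay above all others, by 0.54 ± 0.18 against no device and 0.43 ± 0.16 against silk. Neither difference passed limma's test (adjusted p = 1 and adjusted p = 0.596), which called 0% of 27157 genes in the first comparison and 0.0221% in the second. Counted on samples, progesterone was higher without overlap for 8.82% and 9.8% of all tested brain genes in these comparisons. In brain nfkbia.S ranged from 0.83 to 4.3 FPKM without a device, 0.91 to 5.18 FPKM with silk and 0.9 to 3.79 FPKM with progesterone, groups that overlapped throughout (adjusted p of 0.973 to 1, limma). Brain silk against no device gave nfkbia.L a difference of 0.12 ± 0.18 (adjusted p = 0.954, limma). The silk group includes brain silk 3, which was near-identical to brain no-device 1 and 3. Silk and no device were thus not clearly separate samples in brain, and little can be read from this comparison. Both nfkbia copies were thus above 0 in all 9 brain libraries, with 9.1 to 41.2 estimated reads of nfkbia.L and 1.0 to 13.1 of nfkbia.S, while the other mediators held at most 3.0 reads in a brain library.

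Without a device all 6 genes were higher in blastema than in stump. Every blastema library exceeded every stump library in 6 of 6. Counted on samples, 49.1% of all 31201 tested genes were higher in blastema without overlap. The blastema minus stump differences were 3.79 ± 0.62 for il1b.S, 3.76 ± 0.51 for ptgs2.S, 2.73 ± 0.35 for cxcl8.L, 2.40 ± 0.40 for cxcl8.S, 1.92 ± 0.34 for nfkbia.L and 1.71 ± 0.35 for nfkbia.S. The median of all genes in this comparison was 0.87, and the 6 genes exceeded it by 0.84 for nfkbia.S to 2.92 for il1b.S. With near-identical libraries averaged, brain samples lay below stump samples without overlap for 5 of the 6, all but il1b.S, against 14.5% of all genes. By single libraries ptgs2.S and nfkbia.S overlapped too. They reached 0.71 and 4.3 FPKM in brain, against 0.67 and 3.77 FPKM in the lowest stump libraries. Across the 9 groups the highest mean was untreated blastema for il1b.S, ptgs2.S and cxcl8.L, and stump progesterone for cxcl8.S and both nfkbia copies. For most genes the neighbours in that order overlapped, and nfkbia.L was the gene with the most separate groups.

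With stump as the tissue, all 6 genes had every progesterone library above every library without a device, and 4 of 6 had every silk library above them. For cxcl8.L the lowest progesterone value rests on 2.0 estimated reads. Counted on samples, 30.8% of the 29972 tested genes lay above no device without overlap for progesterone and 23.5% for silk. The rule for the genes used this contrast, so nothing is read from these shares. All genes were shifted in stump, with a median difference from no device of 0.57 for progesterone and 0.52 for silk, which median-of-ratios scaling took to 0.10 and 0.09. Relative to the median of all genes, the progesterone differences were 2.53 for ptgs2.S, 2.22 for il1b.S, 2.06 for nfkbia.L, 1.90 for cxcl8.S, 1.39 for nfkbia.S and 1.03 for cxcl8.L. For silk they were 1.94 for ptgs2.S, 1.80 for il1b.S, 1.02 for nfkbia.L, 0.35 for cxcl8.S, 0.21 for nfkbia.S and −0.12 for cxcl8.L. Both comparisons share the no-device libraries. The authors' deposited table for stump progesterone against no device gives q-values of 0.000359 for nfkbia.L, 0.00344 for nfkbia.S, 0.0112 for cxcl8.S, 0.0204 for ptgs2.S, 0.0624 for il1b.S and 0.146 for cxcl8.L. These q-values are printed as deposited and are no test of the 6 genes, since the rule for the genes used this contrast. A q-value under 0.05 was deposited for 15.3% of all genes in that comparison. For stump silk against no device the share was 26.5% of all genes, and the authors' deposited table has none of the 6 genes under it.

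In blastema the groups with a device spread widely, and the direction of the progesterone difference for part of the genes rested on 1 library. Every progesterone library lay below every no-device library for il1b.S and cxcl8.L, 2 of 6 genes. Counted on samples, 11.2% of the 37273 tested genes did so. Every silk library lay below every no-device library for ptgs2.S alone, where 12.1% of genes did so. Without blastema progesterone 2 the progesterone differences became −0.84 for il1b.S, −0.35 for ptgs2.S, −0.75 for cxcl8.L, 0.54 for cxcl8.S, 0.73 for nfkbia.L and 0.07 for nfkbia.S, from −2.74, −2.76, −2.76, −2.25, −0.45 and −0.63 with it. That library held 182678 estimated reads, and 1 read of il1b.S was worth 3.97 FPKM in it. At the level of blastema progesterone 1 and 3 it would have held 3.3 reads of il1b.S, 2.6 of cxcl8.L, 8.2 of cxcl8.S, 11.2 of ptgs2.S and 37.5 of nfkbia.L, where 0, 0, 0, 0 and 7.2 were estimated. These reads cover counting error only. In the same library 6 of 111 ribosomal protein genes are listed at 0 too, beside 0 or 1 in every other library, so a 0 there is given as listed and not as absence. Without the merged blastema progesterone 1 and 3, which leaves library 2 alone, the progesterone differences of il1b.S, ptgs2.S, cxcl8.L, cxcl8.S, nfkbia.L and nfkbia.S were −4.65, −5.18, −4.77, −5.03, −1.62 and −1.32. Without blastema silk 2 the silk difference of il1b.S became −0.11, from −1.63, that of cxcl8.L −0.59, from −1.98, and that of nfkbia.L 0.018, from −0.43. Without blastema silk 3 the silk difference of cxcl8.S became −1.16, from −2.45, and that of nfkbia.S −0.07, from −0.40. Without blastema silk 1 the silk differences of il1b.S, cxcl8.L, cxcl8.S, nfkbia.L and nfkbia.S became −2.45, −3.05, −3.80, −0.78 and −0.74.

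**Figure D2:**
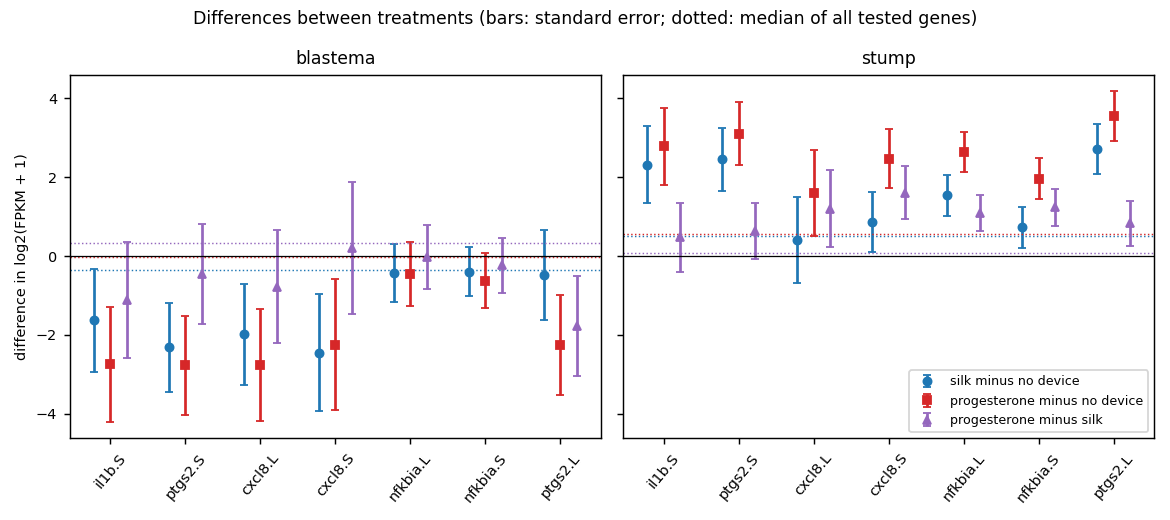
Differences in log2(FPKM + 1) between treatments (y axis) for the 6 genes and ptgs2.L in blastema and stump, with bars of 1 standard error and dotted lines at the median of all tested genes. In stump all progesterone minus no-device values lie between 1.60 and 3.55, and in blastema those of the 6 genes lie between −2.76 and −0.45 with longer bars.

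On the log2(FPKM + 1) scale the progesterone and silk differences had opposite signs in blastema and stump for all 6 genes. Without blastema progesterone 2 the blastema progesterone differences of cxcl8.S, nfkbia.L and nfkbia.S were positive, as given above. The authors' deposited blastema log2 fold changes for progesterone were also positive for nfkbia.L (0.47), cxcl8.S (0.25) and nfkbia.S (0.034), and negative for the other genes. For silk they were positive for nfkbia.L (0.10) and nfkbia.S (0.094) and negative for the others. In stump the authors' silk value of nfkbia.S was −0.039. The signs of these genes thus depended on the scale. For silk the blastema values of nfkbia.L and nfkbia.S turned to 0.14 and 0.15 with FPKM rescaled without smad4.1.S, and the settings given above turned nfkbia.L in blastema and cxcl8.L in stump. As an interaction in a fit of all limb samples, the blastema minus stump value of the progesterone difference was −5.53 for il1b.S, −5.86 for ptgs2.S, −4.36 for cxcl8.L, −4.71 for cxcl8.S, −3.08 for nfkbia.L and −2.59 for nfkbia.S, where the median of all genes was −0.49. For silk the values were −3.94, −4.77, −2.38, −3.31, −1.97 and −1.12 in the same order, and the median was −0.85. Without blastema progesterone 2 the progesterone values shrank to −3.63 for il1b.S, −3.45 for ptgs2.S, −2.35 for cxcl8.L, −1.93 for cxcl8.S and −1.90 for nfkbia.L, and without the merged blastema progesterone 1 and 3 that of cxcl8.S was −7.50. For silk, il1b.S was −2.42 and cxcl8.L −0.99 without blastema silk 2, cxcl8.L was −3.60 without stump silk 2, and cxcl8.S was −2.02 without blastema silk 3. These are descriptions for the same reason as above, and the high level of untreated blastema and the low level of untreated stump enter every one of them.

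Within pairs of copies the share of the .L copy was steady for nfkbia. Its .L copy held 62.6% to 93.2% of the summed FPKM of the pair over all 27 libraries, with a median of 81.0% in blastema, 82.6% in stump and 80.3% in brain. For cxcl8 the .L share was 41.9% to 48.1% in untreated blastema and 34.6% to 45.4% in untreated stump. With silk it ran from 0% to 100% in blastema and from 0% to 61.3% in stump, and with progesterone from 7.5% to 44.3% in stump. In blastema with progesterone it was 22.8% and 26.5% in the near-identical libraries 1 and 3, which count as 1 sample, and library 2 held neither copy. The cxcl8 copies hold few reads, at most 19.0 for cxcl8.L and 44.4 for cxcl8.S in a library, and shares in single libraries move with them.

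**Figure D3:**
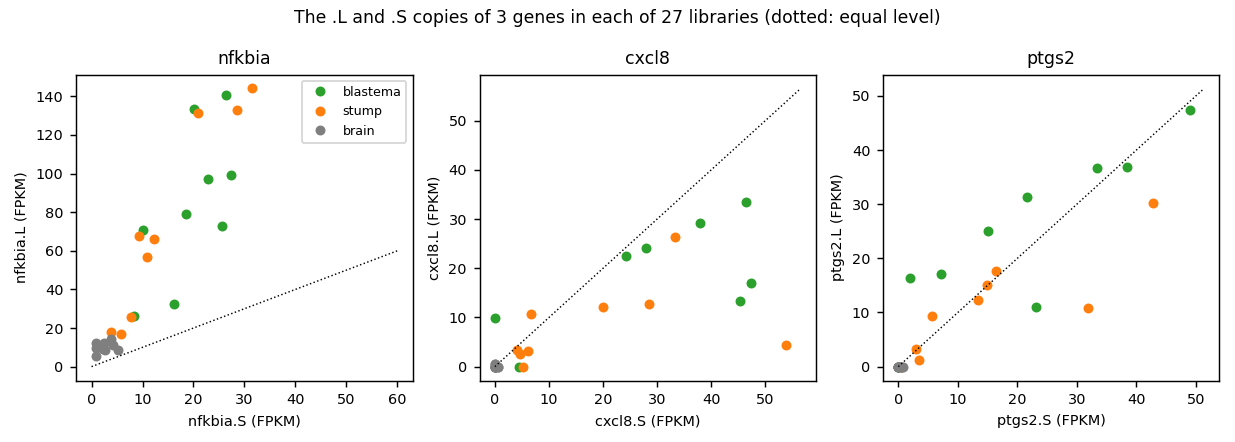
FPKM of the .L copy (y axis) against the .S copy (x axis) of nfkbia, cxcl8 and ptgs2, 1 point per library, coloured by tissue, with a dotted line at equal level. All nfkbia points lie above the line, while most cxcl8 limb points lie below it.

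Over the 16 limb samples the 6 genes varied together. Pearson correlations of log2(FPKM + 1) between pairs ran from 0.55 for il1b.S with cxcl8.S to 0.88 for il1b.S with ptgs2.S, and that of the nfkbia copies was 0.85. The points share libraries, depth and treatment groups, so these are descriptions. Averaged as standardised values, the 6 genes were lowest in blastema progesterone 2 (−1.65), in the stump samples without a device (−1.14 and −1.16) and in blastema silk 2 (−1.03), and highest in stump progesterone 3 (1.13) and blastema no-device 3 (0.99). Among 7896 other named genes whose mean was 10 or more estimated reads, the 10 most like this average were nrp1.L (0.944), zswim6.S (0.931), brd2.S (0.93), mmp25.L (0.929), hdac7.L (0.928), sat1.S (0.927), junb.S (0.926), cpd.L (0.926), fosl2.L (0.919) and odc1.L (0.917), each with its Pearson correlation. Among these, junb.S and fosl2.L encode subunits of the transcription factor AP-1, and odc1.L and sat1.S encode enzymes of polyamine synthesis and breakdown. The best ranked genes of the pathway lists were tnip1.S at rank 41 (0.894), an inhibitor of the pathway, and socs3.L at rank 45 (0.886), an inhibitor of cytokine signalling.

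The wider pathway was followed in 7 lists by role, with 163 symbols, of which 123 were found, as 174 genes without the 6. No list gene passed limma's test in any treatment comparison. In the limb 0% of all tested genes passed it in each comparison, while 2953 of 29972 genes for stump progesterone, 3892 for stump silk, 1378 of 37273 for blastema progesterone and 2859 for blastema silk had an unadjusted p under 0.05. Of the list genes, 33 of 157 had such an unadjusted p for stump progesterone against no device, 31 of them positive, and 23 of 157 for silk, 19 of them positive. In blastema 3 of 170 did so for progesterone, all negative, and 11 of 170 for silk, 10 of them negative. By voom on estimated reads, 1434 genes of the whole table passed for stump progesterone and 7383 for stump silk, and 2 and 123 in blastema. In the authors' deposited tables, a total of 20 list genes were higher and 7 lower at a q-value under 0.05 for stump progesterone, 15.6% of 173 beside 15.3% of all genes, and 11 were higher and 13 lower for stump silk, 13.8% of 174 beside 26.5%. The median stump difference of the 157 tested list genes was 0.77 for progesterone, beside 0.57 for all genes, and 0.41 for silk, beside 0.52. Counted on samples, 71 of them (45.2%) lay above no device without overlap for progesterone, beside 30.8% of all genes. For silk 44 (28%) did so, beside 23.5%. Between tissues without a device limma called list genes: 49 of 156 were higher in blastema than in stump (31.4%, beside 28.8% of all genes), and 2, sod2.S for a mitochondrial superoxide dismutase and ptgfr.S for a prostaglandin receptor, were lower (1.28%, beside 2.35%). In brain 11 were higher than in stump (7.05%, beside 29% of all genes) and 30 lower (19.2%, beside 4.98%). These splits moved with the scaling. After median-of-ratios scaling 9 list genes were higher and 7 lower in blastema than in stump (5.77% and 4.49%, beside 14.7% and 7.95% of all genes), and 5 were higher and 56 lower in brain (3.21% and 35.9%, beside 16.5% and 12.2%). The median blastema difference for treatment was −0.28 for progesterone, beside −0.02, and −0.46 for silk, beside −0.36.

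By role, the stump progesterone medians were 1.08 for inhibitors and feedback genes (23 of 25 positive), 0.90 for transducers to the IkappaB kinase (31 of 35), 0.89 for the NF-kappaB subunits (9 of 9), 0.89 for cytokines and chemokines (12 of 15), 0.87 for other target genes (31 of 36), 0.43 for receptors (15 of 18) and 0.37 for prostaglandin and leukotriene genes (19 of 24). Of all tested genes 76.6% were positive in that comparison. The receptors and the prostaglandin genes were thus under the median of all genes, 0.57. In blastema the same medians were −0.40, −0.36, −0.66, 0.15, −0.54, −0.13 and 0.04 in that order. For silk in blastema they were −0.36, −0.50, −1.29, −0.76, −0.51, −0.20 and −0.38, where 127 of the 170 list genes and 68.2% of all genes were negative.

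**Figure D4:**
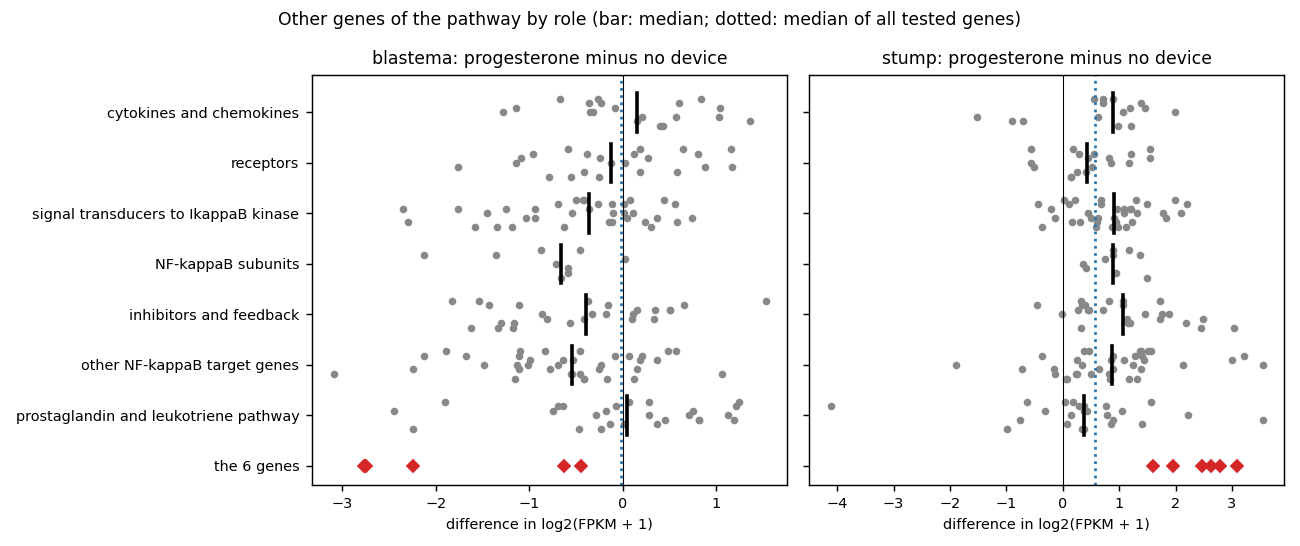
Progesterone minus no-device differences in log2(FPKM + 1) (x axis) of the other pathway genes by role (y axis), in blastema and stump, with a black bar at each median, a dotted line at the median of all tested genes and diamonds for the 6 genes. In stump the medians run from 0.37 to 1.08 and the 6 genes lie at 1.60 to 3.10.

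Among the feedback genes named by abundance, both copies of socs3 had higher stump levels with a device than without one, though their silk and progesterone libraries overlapped, unlike those of nfkbia.L. The cytokine signalling inhibitor socs3.L was at 23.77, 15.01 and 26.39 FPKM in stump without a device, 86.94, 64.02 and 72.08 FPKM with silk, and 91.49, 78.33 and 189.49 FPKM with progesterone. Its second annotated copy, named socs3 in the tables, was at 32.41, 18.53 and 35.48 FPKM, 79.73, 76.17 and 98.9 FPKM, and 96.64, 100.57 and 167.47 FPKM in the same order. In both, every device library lay above every library without a device. The progesterone differences were 2.45 ± 0.59 for socs3.L and 2.18 ± 0.56 for socs3, and neither passed (adjusted p = 0.236 and adjusted p = 0.271, limma).

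Among transducers, the adaptor gene traf2.L differed in stump by 2.21 ± 0.60 with progesterone, from 3.49 to 6.46 FPKM without a device to 20.37 to 39.67 FPKM, and myd88.L, the adaptor of Toll-like and interleukin 1 receptors, by 1.78 ± 0.55 (adjusted p = 0.304 and adjusted p = 0.366, limma). The subunit rela.L, the p65 chain of NF-kappaB, was at 6.44, 8.79 and 4.27 FPKM in stump without a device and at 12.68, 14.19 and 15.82 FPKM with progesterone, and its difference was 0.94 ± 0.52 (adjusted p = 0.552). The matrix protease gene mmp9.S, a known NF-kappaB target, differed by 1.56 ± 0.59 (adjusted p = 0.436, limma). For hpgd.L, which encodes the enzyme that inactivates prostaglandins, the difference was 2.22 ± 0.75 (adjusted p = 0.39, limma). Each stump progesterone difference named in this paragraph up to here lay above the median of its list given above. These genes thus do not stand for their lists. In blastema rela.L was at 14.01 to 22.79 FPKM without a device, 4.55 to 17.46 FPKM with silk and 5.8 to 20.86 FPKM with progesterone. The direction was not the same in every list gene. Of the 9 NF-kappaB subunit genes, the authors' deposited table has 1 higher and 3 lower at a q-value under 0.05 for stump silk. That is 44.4%, beside 26.5% of all genes. For stump progesterone it has 0 higher and 0 lower, beside 15.3% of all genes. In stump tgfb1.L, a cytokine that limits inflammation and drives matrix production, lay lower with both devices, by −0.91 ± 0.64 with progesterone and −1.47 ± 0.64 with silk (adjusted p = 0.606 and adjusted p = 0.372, limma). Its other copy, tgfb1.S, was more like the average of the chosen genes over the limb samples, with a Pearson correlation of 0.851 beside 0.429 for tgfb1.L. In blastema mmp9.S was at 378.24 and 381.69 FPKM in progesterone libraries 1 and 3, above its 50.04 to 132.21 FPKM without a device, and at 12.77 FPKM in progesterone library 2.

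Other marker genes moved beside the 6 in stump. Immediate early and heat shock genes (38 genes), which respond to handling and injury, summed to 949.0 to 1029 FPKM without a device, 1888 to 3379 FPKM with silk and 3413 to 4072 FPKM with progesterone. For progesterone 34 of 38 were positive, beside 76.6% of all tested genes. The authors' deposited table has 20 of the 38 higher and 4 lower at a q-value under 0.05 for progesterone (63.2%, beside 15.3% of all genes). For silk it has 12 higher and 4 lower (42.1%, beside 26.5% of all genes). Erythrocyte markers (17 genes) summed to 3673 to 5417 FPKM, 22740 to 69680 FPKM and 29300 to 90920 FPKM, and skeletal muscle markers (27 genes) to 56970 to 89030 FPKM, 5791 to 12640 FPKM and 4637 to 30020 FPKM. Neuronal markers (17 genes) summed to 23.69 to 28.5 FPKM, 75.08 to 93.48 FPKM and 29.28 to 103.3 FPKM, and the authors' deposited tables have 8 of the 17 higher at a q-value under 0.05 for progesterone and 10 for silk (47.1% and 58.8%, beside 15.3% and 26.5% of all genes). Each of these 4 lists separated the stump device libraries from those without a device. Endothelium markers (16 genes) summed to 113.1 to 117.3 FPKM, 115.2 to 249.7 FPKM and 228.0 to 296.7 FPKM in the same order. Astroglia and microglia markers (10 genes) summed to 8.69 to 18.82 FPKM, 11.65 to 56.65 FPKM and 23.26 to 39.58 FPKM. In both, progesterone but not silk was separated from no device. The sums of the fibroblast and epidermis markers overlapped between stump groups. Myeloid leukocyte markers (35 genes) summed to 226.4 to 476.8 FPKM without a device, 211.2 to 1095 FPKM with silk and 411.4 to 927.4 FPKM with progesterone, ranges that overlapped. For progesterone 32 of 35 were positive at a median of 0.71, where 76.6% of all tested genes were positive at a median of 0.57. The authors' deposited table has 1 of the 35 at a q-value under 0.05 for progesterone (2.86%, beside 15.3% of all genes). At most 5 of the 35 were listed at 0 in any stump library. The part of these cells and genes in the differences of the 6 genes was not tested.

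In blastema the myeloid markers summed to 378.5 to 568.1 FPKM without a device, 441.4 to 799.9 FPKM with silk and 261.2 to 818.0 FPKM with progesterone, and muscle markers to 17390 to 33890 FPKM, 997.8 to 2693 FPKM and 2902 to 4182 FPKM. Immediate early and heat shock genes summed to 1191 to 2110 FPKM, 1067 to 1406 FPKM and 935.7 to 4064 FPKM. Erythrocyte markers summed to 4301 to 14280 FPKM, 15970 to 51540 FPKM and 3095 to 63380 FPKM, so that all blastema silk libraries lay above those without a device. The lowest progesterone value of every list given here, muscle and erythrocyte markers included, was that of library 2, in which the 6 genes were also lowest. The part of these lists in the blastema differences was not tested either.

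**Figure D5:**
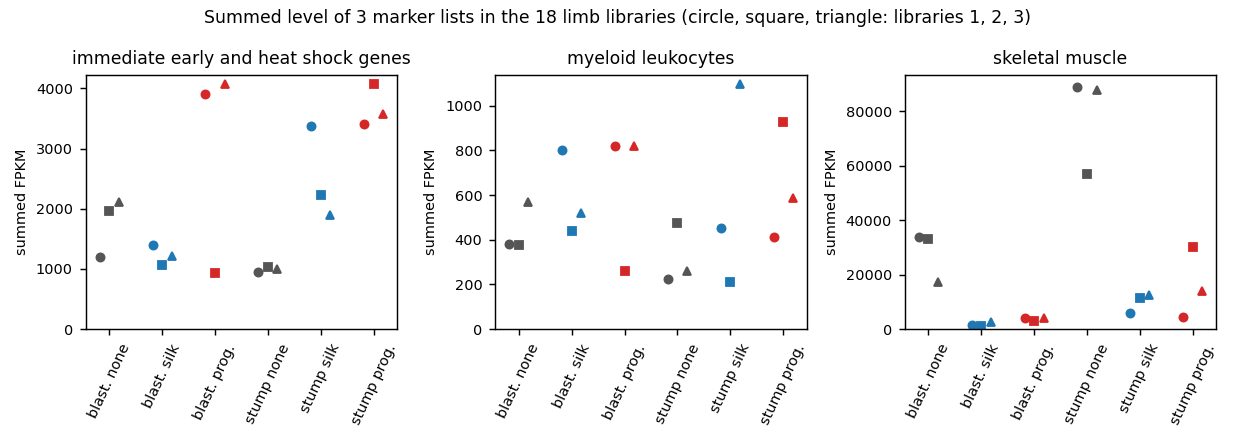
Summed FPKM (y axis, from 0) of immediate early and heat shock genes, myeloid leukocyte markers and skeletal muscle markers in the 18 limb libraries, by tissue and treatment (x axis). The stump libraries without a device sit at 949.0 to 1029 FPKM in the first panel, below all stump device libraries, and at 56970 to 89030 FPKM in the third, above them.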

How the data were processed

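Each of the 9 combinations of tissue and treatment has 3 RNA libraries. Per the labels' protocols, ribosomal RNA was depleted and 40 nt were read. Per the submitters' processing notes the authors used FastQC, Trimmomatic, STAR, RSEM and edgeR; the sources used here give no version, genome build, annotation or strand. The authors deposited 9 tables, each for a pair of treatments in a tissue. The library values have no stated unit and are taken as FPKM made by the authors, since multiplying them by the estimated gene length gives all libraries equal totals. The deposited group means (average CPM per the file headers) are a signal on the authors' own scale. The deposited p-values, q-values and log2 fold changes are the authors' own and are printed as such.

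Differences were computed on log2(FPKM + 1), a pseudocount of 1, by limma 3.58.1 (R 4.3.3), over genes with 3 or more samples at an FPKM of 1 or more, with all treatments of a tissue in one fit, and Benjamini-Hochberg adjustment over all tested genes at 0.05. Near-identical libraries of a group (under 1% of genes differing in a chi-square test of estimated reads) were averaged. Fold changes of low genes are understated on this scale. Reads were estimated from FPKM, length and the deposited means. Only 54.2% to 66.0% of a library's low values came within 0.1 of whole numbers of reads, and for that reason the main fit used no count test. Estimated reads did enter the chi-square test that merged libraries, which sets n, and the voom alternative. Both carry this uncertainty. The fit was tested on simulated data. The genes and lists were chosen with earlier results of these data known. Of each list the 3 most abundant limb genes were eligible to be named. Only some of them are named, and no rule for the choice among them is given, so the named genes do not stand for their lists. Genes called only between tissues without a device are left as counts, apart from 2 named after their values were seen. The labels do not say that replicate numbers pair libraries. Deviations from the group means correlated above 0.1 in all 3 same-numbered pairs only for blastema silk with progesterone (0.111 to 0.246), where silk 1 was as close to progesterone 3 (0.147), so only these 2 groups met the criterion for pairing. There were 0 unused library columns. Alternatives were other pseudocounts, filters, scaling, voom, separate libraries, the replicate block and leaving out each sample.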

Additional observations from a re-analysis of the deposited data

Results flagged for a closer look

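For 3 of the 6 genes a treatment difference ran opposite ways in blastema and stump, with every sample of the treated group below every untreated sample in blastema and above every untreated sample in stump. For il1b.S the progesterone minus no-device difference was −2.74 in blastema and 2.79 in stump. For cxcl8.L it was −2.76 in blastema and 1.60 in stump. For ptgs2.S the silk minus no-device difference was −2.31 in blastema and 2.46 in stump. The difference between the tissues was not tested for these genes, because they were chosen on these libraries. Without blastema progesterone 2 the blastema values became −0.84 for il1b.S and −0.75 for cxcl8.L. The lowest stump progesterone value of cxcl8.L rests on 2.0 estimated reads. For progesterone 11.2% of all tested genes were lower without overlap in blastema and 30.8% higher in stump. For silk these shares were 12.1% and 23.5%. The share of genes with both is not given here, and either treatment could place a gene here, so nothing is read from the 3 of 6.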

How the results depend on the processing

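Over all tested genes the number of calls moved with the processing. With no call as fitted, blastema silk against no device gave 288 calls with a pseudocount of 0.1, 117 with a pseudocount of 5, 135 with at least 10 estimated reads on average, 79 with separate libraries and 123 by voom, and blastema progesterone against no device 4 with separate libraries and 2 by voom. Stump silk against no device gave 27 with a pseudocount of 0.1, 158 with at least 10 reads, 916 with separate libraries, 904 with separate libraries and the replicate block, 7383 by voom and 505 without libraries with smad4.1.S above 10% of reads (chosen after seeing the data). Stump progesterone against no device gave 81 with a pseudocount of 5, 240 with at least 10 reads, 302 with separate libraries, 132 with separate libraries and the replicate block, 1434 by voom and 94 without those smad4.1.S libraries, and stump progesterone against silk 132 with a pseudocount of 0.1 and 9 with separate libraries. Brain silk against no device gave 35 with a pseudocount of 0.1, 1 with at least 10 reads, 5 with separate libraries and 1 by voom, and brain progesterone against no device 6 with a pseudocount of 0.1, 2 with separate libraries and 1 without those smad4.1.S libraries. Brain progesterone against silk, with 6 calls, gave 62 with a pseudocount of 0.1, 0 with a pseudocount of 5, 1 with at least 10 reads, 0 with separate libraries and the replicate block, 2 by voom and 0 without those smad4.1.S libraries. Blastema against stump without a device, with 9725, gave 5791 with a pseudocount of 5, 5969 with at least 10 reads, 15721 with separate libraries, 15227 with separate libraries and the replicate block and 17584 by voom, and brain against stump, with 10613, gave 16551 with separate libraries, 16104 with the block as well and 17245 by voom. The block could be fitted only with separate libraries, so its counts are to be read beside those of separate libraries alone. The silk interaction, with 1 call, gave 44 with a pseudocount of 0.1, 28 with separate libraries, 25 with separate libraries and the replicate block and 1886 by voom, and 0 with a pseudocount of 5, at least 10 reads, median-of-ratios scaling or FPKM rescaled without smad4.1.S (also chosen after seeing the data), and the progesterone interaction gave 2 by voom. The cause of these moves was not tested.

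Leaving out 1 sample at a time gave 0 to 0 calls for blastema silk against no device, 0 to 1 for blastema progesterone against no device and against silk, 0 to 11 for stump silk, 0 to 0 for stump progesterone against no device and 0 to 3 against silk. In brain it gave 0 to 26 for silk, 0 to 4 for progesterone against no device and 0 to 72 against silk; the 26 and the 72 are without brain silk 3, the library near-identical to brain no-device 1 and 3. Blastema against stump gave 1029 to 7543, brain against stump 4979 to 8078, the silk interaction 0 to 5 and the progesterone interaction 0 to 90.

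In stump the progesterone minus no-device difference of all 6 genes kept its sign under every alternative run. For nfkbia.S in brain, progesterone minus no device turned to 0.17 without brain progesterone 2, progesterone minus silk to 0.27 without brain progesterone 2 and to 0.33 without brain silk 3, and silk minus no device to 0.22 by voom, 0.043 with separate libraries, 0.043 with separate libraries and the replicate block, 0.32 without brain silk 2 and 0.78 without the smad4.1.S libraries. Leaving out samples gave these 3 differences of nfkbia.S ranges of −0.49 to 0.17, −0.51 to 0.33 and −0.53 to 0.32. In stump progesterone minus silk, ptgs2.S turned to −0.26 and cxcl8.S to −0.13 without the smad4.1.S libraries, il1b.S to −0.60 without stump progesterone 3 and cxcl8.L to −0.02 without stump silk 2. In blastema silk minus no device, nfkbia.L turned to 0.14 and nfkbia.S to 0.15 with FPKM rescaled without smad4.1.S. Deviations of same-numbered libraries correlated between −0.17 and 0.25 for blastema, −0.27 and 0.17 for stump, and −0.06 and 0.19 for brain, and the block called 0 genes for blastema progesterone against silk, as did separate libraries without it. Depth limits these genes to unlike degrees. At most 32.8 reads of il1b.S were estimated in a blastema library, 37.7 in a stump library and 1.0 in a brain library. For nfkbia.L there were 30.7 to 337.7 in stump, 7.2 to 193.4 in blastema and 9.1 to 41.2 in brain.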
